A study of Mus musculus with 8 samples.

Results

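Fragments of the alanine tRNAs were described in islet macrophages (iMACs) from obese, diabetic db/db mice and from wild-type controls. A fragment was included if the table of tRNA-derived fragments (tRFs) named it tRNA-Ala-AGC, tRNA-Ala-CGC or tRNA-Ala-TGC, where the last 3 letters are the anticodon. Repeated rows with the same sequence were joined, which left 13 alanine fragments among the 144 distinct tRFs of the table. Of these, 7 were 5'tRFs with at least 4 guanines at the start, 5 were internal and 1 was a 3'tRF. The iMACs were sorted from pancreatic islets by flow cytometry for the surface markers CD45, F4/80, CD11b and CD11c. There were 4 libraries from db/db mice (BKS.Cg-Dock7m+/+LeprdbJ, with a mutated leptin receptor in every cell) and 4 from wild-type mice of the matching background (BKS.Cg-Dock7m+/+), all males of 8 weeks. Islets of more than 1 mouse were pooled for each preparation, so a library is not a single animal. The table lists tRFs only, so the sorted cells could not be checked against macrophage markers.

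Mature tRNAs fold into a cloverleaf, with a 5' strand that runs from the acceptor stem into the D arm, and every mature tRNA ends in CCA at its 3' end. Nucleases such as angiogenin and Dicer can cut tRNAs into 5', internal and 3' fragments, and their amounts change with cell stress. The cytosolic alanine tRNAs of mammals begin with a run of guanines (an oligoguanine 5' end). Synthetic and natural 5' fragments of tRNA-Ala with such an end can associate into G-quadruplexes, and long 5' fragments of tRNA-Ala can displace translation initiation factors from mRNA in human cells. In a bulk preparation fewer cells that hold a fragment and less of it per cell cannot be told apart.

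The sequences fell into few types, which are printed to show what tells them apart, in DNA letters as deposited. In the 5'tRFs the capitals mark the leading guanine run. The longest and the shortest member of a set of nested 5'tRFs shared by all 3 anticodons are shown.
Ala-AGC/Ala-CGC/Ala-TGC, 23 nt: GGGGatgtagctcagtggtagag
Ala-AGC/Ala-CGC/Ala-TGC, 18 nt: GGGGatgtagctcagtgg
Ala-CGC, 16 nt: GGGGatgtagctcaga
Ala-AGC, 19 nt: GGGGGattagctcaaatgg
Cys-GCA, 23 nt, the most abundant oligoguanine 5'tRF outside alanine: GGGGGtatagctcagtggtagag

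In the internal fragments the capital marks base 16, and in the 3'tRF the capitals mark the CCA end.
Ala-TGC, bases 7 to 23: gtagctcagCggtagag
Ala-TGC, bases 10 to 25: gctcagCggtagagca
Ala-TGC and Cys-GCA, bases 10 to 25: gctcagTggtagagca
Ala-CGC and Ala-TGC, 3' end: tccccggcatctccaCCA

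Bases were counted from 1 at the mature 5' end, which was inferred from the conserved bases of the D arm. The 16-nt Ala-CGC fragment differed from the shared 5'tRFs at its last base only (T16A, the shared base first). Its Ala-CGC name rests on that base, which could not be checked against an annotated mature tRNA. The 4 internal Ala-TGC fragments carried T16C at the same place. Over bases 1 to 16 the 19-nt Ala-AGC fragment differed at A5G, T6A, G7T, G15A and T16A, so its guanine run was 5 bases long. Its sequence also differs from the ladder after base 16, and those differences are not listed. The 5 shared 5'tRFs (18, 19, 20, 21 and 23 nt) differ from each other at the 3' end only. They are called the shared ladder below, and their counts come from the same 5' end. No alanine fragment was longer than 23 nt, whereas the longest tRF of the table had 30 nt, and 6 of the 13 had 16 or 17 nt. Of the 144 tRFs, 16 (11.1%) began with 4 or more guanines, namely these 7 and 9 of Cys-GCA. RefSeq (GRCm38.p6) lists 33 alanine tRNA genes with these anticodons, 13 for AGC, 9 for CGC and 11 for TGC, with 12 on chromosome 13 and 12 on chromosome X. The fragments were not mapped to these genes, so none is placed at 1 gene here. For 7 of the 13 the sequence also occurs in another GENCODE transcript, among them all 5 of the shared ladder and both fragments at bases 10 to 25, so counts of these may include other RNAs.

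**Figure D1:**
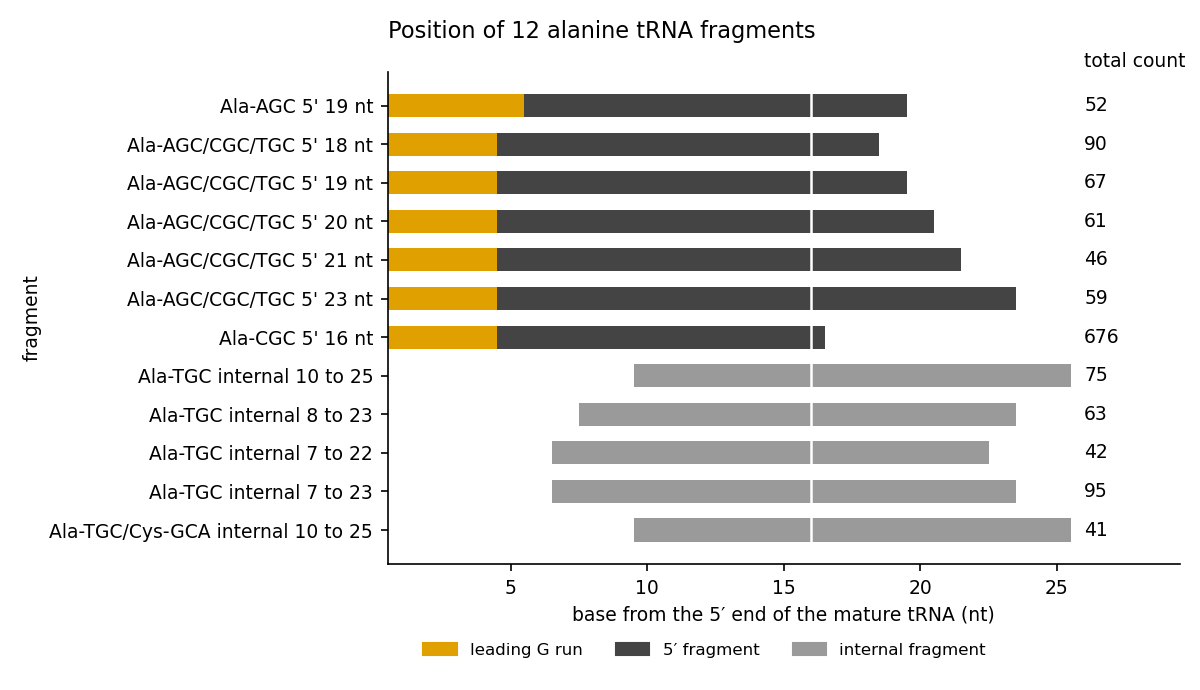
Each bar spans the bases of 1 alanine fragment, counted from the mature 5' end in nt, with the leading guanine run, other parts of 5'tRFs and internal fragments in different shades. The white line marks base 16, and the number at the right is the count over all 8 libraries. The 16-nt Ala-CGC fragment has 676 counts, the other fragments 41 to 95. The 3'tRF is not placed.

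The listed tRFs of a library had 1710 to 2521 counts in db/db and 1477 to 4567 counts in wild-type iMACs. These totals are not sequencing depths, because they cover the listed tRFs only. In 3 libraries (db/db replicate 1 and replicates 3 and 4 of the wild type) Cys-GCA oligoguanine 5'tRFs held 14.8% to 22.4% of the listed counts, against 0.733% to 2.05% in the other 5. These 3 libraries stood apart, and several results below are given with and without them. Levels are the percentage of all listed counts of a library. A library with 0 counts of a fragment allows a level of up to 0.119% to 0.175% in db/db libraries and up to 0.0657% to 0.203% in wild-type libraries (3 counts of the total), and these limits and the 95% Wilson intervals in the plots cover counting error only.

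Alanine fragments made up 1405 of 18250 listed counts (7.70%), from 9.03% of the sequences. Oligoguanine 5'tRFs held 74.8% of the alanine counts, internal fragments 22.5% and the 3'tRF 2.70%. The alanine level was 4.96%, 24.3%, 3.98% and 3.33% in db/db replicates 1 to 4, against 6.05%, 10.02%, 6.13% and 5.53% in wild-type replicates 1 to 4. Replicate 2 of each genotype was the highest of its group, and the other 3 db/db libraries lay below every wild-type library. The means were 9.14% ± 10.1 in db/db and 6.93% ± 2.08 in wild-type iMACs (SD, n = 4 each), so the difference of 2.21 percentage points was smaller than the spread.

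The oligoguanine class was likewise highest in replicate 2 of each genotype. It held 3.13%, 22.4%, 2.77% and 1.99% of the counts in db/db replicates 1 to 4, against 2.02%, 7.72%, 4.55% and 3.98% in wild-type replicates 1 to 4. The groups overlapped, with means of 7.56% ± 9.88 in db/db and 4.57% ± 2.36 in wild-type iMACs (SD, n = 4 each). Within the alanine counts, the class made up 63.2%, 92.1%, 69.4% and 59.6% in the db/db libraries and 33.3%, 77.0%, 74.3% and 72.1% in the wild-type libraries. Wild-type replicate 1 was the only library in which internal fragments outnumbered it (59.8% of the alanine counts).

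Internal fragments were spread more evenly. Their level was 1.51%, 1.67%, 1.22% and 0.936% in db/db replicates 1 to 4, against 3.62%, 2.17%, 1.47% and 1.44% in wild-type replicates 1 to 4. The means were 1.33% ± 0.324 in db/db and 2.17% ± 1.02 in wild-type iMACs (SD, n = 4 each), and the ranges overlapped. The difference of -0.84 percentage points was -0.36 without wild-type replicate 1 and -1.62 without the 3 libraries that stood apart. The 3'tRF was rare, at 0.317%, 0.253%, 0% and 0.409% in the db/db libraries and 0.412%, 0.135%, 0.109% and 0.0996% in the wild-type libraries, with no order between the genotypes.

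**Figure D2:**
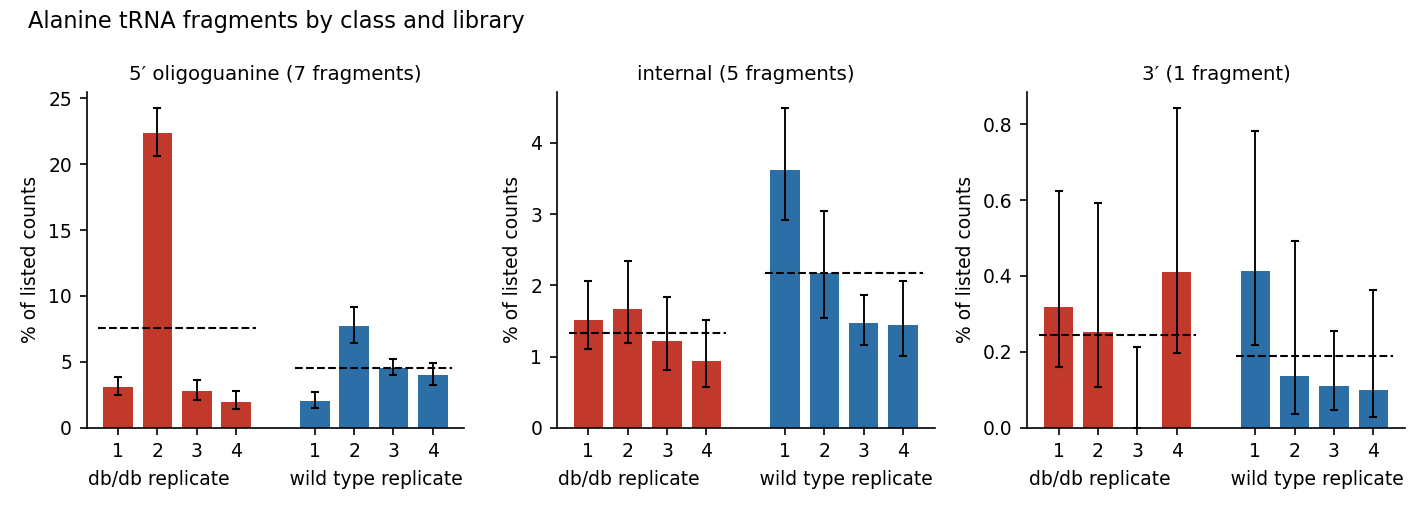
Percentage of all listed tRF counts (y axis, from 0) held by 3 classes of alanine fragments in each db/db (red) and wild-type (blue) replicate, with 95% Wilson intervals and the group mean as a dashed line. Oligoguanine 5'tRFs reach 22.4% in db/db replicate 2 and 7.72% in wild-type replicate 2, and internal fragments reach 3.62% in wild-type replicate 1.

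The 7 oligoguanine 5'tRFs did not vary together. The 16-nt Ala-CGC fragment alone held 48.1% of the alanine counts and had the second highest mean level of the 144 tRFs. It had 19, 423, 30 and 16 counts in db/db replicates 1 to 4, against 36, 95, 40 and 17 counts in wild-type replicates 1 to 4. As levels these were 0.754%, 21.4%, 1.66% and 0.936% in db/db and 1.65%, 6.43%, 0.876% and 0.846% in wild-type iMACs. Replicate 2 was far above the others in each genotype, and the other 6 libraries overlapped between genotypes. The spread over the libraries was the largest of the 144 tRFs, with a chi-square of 283 per degree of freedom against equal levels. In edgeR the log2 fold change was 1.51 with an SE of 1.08 (edgeR adjusted p = 0.464), and without db/db replicate 2 it was -0.99 (edgeR adjusted p = 0.855).

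With this 1 fragment taken out of the counts and the totals, an alternative chosen after seeing the data, the oligoguanine class held 2.40%, 1.22%, 1.12% and 1.06% in the db/db libraries and 0.373%, 1.37%, 3.71% and 3.16% in the wild-type libraries. Its mean was then 1.45% ± 0.634 in db/db and 2.16% ± 1.55 in wild-type iMACs (SD, n = 4 each). The direction thus turned with a fragment that was high in 1 library per genotype. The level of all alanine fragments turned likewise, to 3.17% ± 0.931 in db/db and 4.58% ± 0.607 in wild-type iMACs (SD, n = 4 each). The groups still overlapped, with 4.24% in db/db replicate 1 against 3.84% in wild-type replicate 2. The remaining db/db libraries lay below every wild-type library.

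The shared ladder, whose sequence matches tRNAs of all 3 anticodons, was high in other libraries. Its 5 members together had 56, 16, 11 and 13 counts in the db/db libraries, against 3, 7, 160 and 57 in the wild-type libraries, each in the order of replicates 1 to 4. The levels were 2.22%, 0.810%, 0.608% and 0.760% in db/db against 0.137%, 0.474%, 3.50% and 2.84% in wild-type iMACs. The 3 libraries named above as standing apart were the highest, and wild-type replicates 1 and 2 were the lowest of all. The edgeR log2 fold change of the sum was -1.17 with an SE of 0.98 (edgeR adjusted p = 0.411). It was -0.66 with library totals in place of TMM factors and -0.30 with a term for the library numbers. Libraries 17 to 20 and 21 to 24, the only order that the sample names give, went opposite ways. The mean was 1.52% in db/db against 0.306% in wild-type iMACs among libraries 17 to 20, and 0.684% in db/db against 3.17% in wild-type iMACs among libraries 21 to 24, with 2 libraries of each genotype in each.

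The 4 shorter members were each highest in the same 3 libraries as the sum. Its order among the low libraries did not hold for them. The 18-nt fragment was at 0.339% in wild-type replicate 2, against 0.253%, 0.221% and 0.175% in db/db replicates 2 to 4. The 18-nt fragment, the most abundant, had 16, 5, 4 and 3 counts in the db/db and 1, 5, 44 and 12 counts in the wild-type libraries. The 19-nt fragment had 9, 3, 1 and 1 counts in the db/db and 2, 0, 38 and 13 counts in the wild-type libraries. The 20-nt fragment had 15, 2, 0 and 1 counts in the db/db and 0, 1, 24 and 18 counts in the wild-type libraries, and the 21-nt fragment had 9, 0, 1 and 0 in the db/db and 0, 1, 30 and 5 in the wild-type libraries. In each of these 4 the highest wild-type library was replicate 3 and the highest db/db library was replicate 1, except that wild-type replicate 4 was the highest by level for the 20-nt fragment (0.896%).

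The 23-nt fragment was distributed otherwise. It had 7, 6, 5 and 8 counts in the db/db libraries, against 0, 0, 24 and 9 counts in the wild-type libraries. Its db/db levels were the most even of the ladder, from 0.277% to 0.468%, and wild-type libraries lay both below and above them.

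The 19-nt Ala-AGC fragment has the longest guanine run of the alanine tRFs. It had 4, 3, 9 and 5 counts in the db/db and 5, 12, 8 and 6 counts in the wild-type libraries. The levels were 0.159%, 0.152%, 0.498% and 0.292% in db/db and 0.229%, 0.812%, 0.175% and 0.299% in wild-type iMACs. Wild-type replicate 2 was the highest library, and the ranges of the genotypes overlapped. The lowest levels, in db/db replicates 1 and 2, rest on 4 and 3 counts. The total of db/db replicate 2 includes 423 counts of the 16-nt Ala-CGC fragment, so the order of these low libraries is not read further.

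The Cys-GCA oligoguanine 5'tRFs, the only others in the table, were high in the same 3 libraries as the ladder. The 9 fragments together held 14.8%, 0.810%, 1.22% and 2.05% of the counts in db/db replicates 1 to 4, against 0.733%, 1.08%, 22.4% and 22.4% in wild-type replicates 1 to 4. Both sets rest on the same libraries, so their likeness is a description of 3 libraries. Part of the sequence is shared as well, since the 23-nt fragments printed above both end in tagctcagtggtagag. Whether the preparation of these 3 libraries has a part in the ladder's level was not tested.

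**Figure D3:**
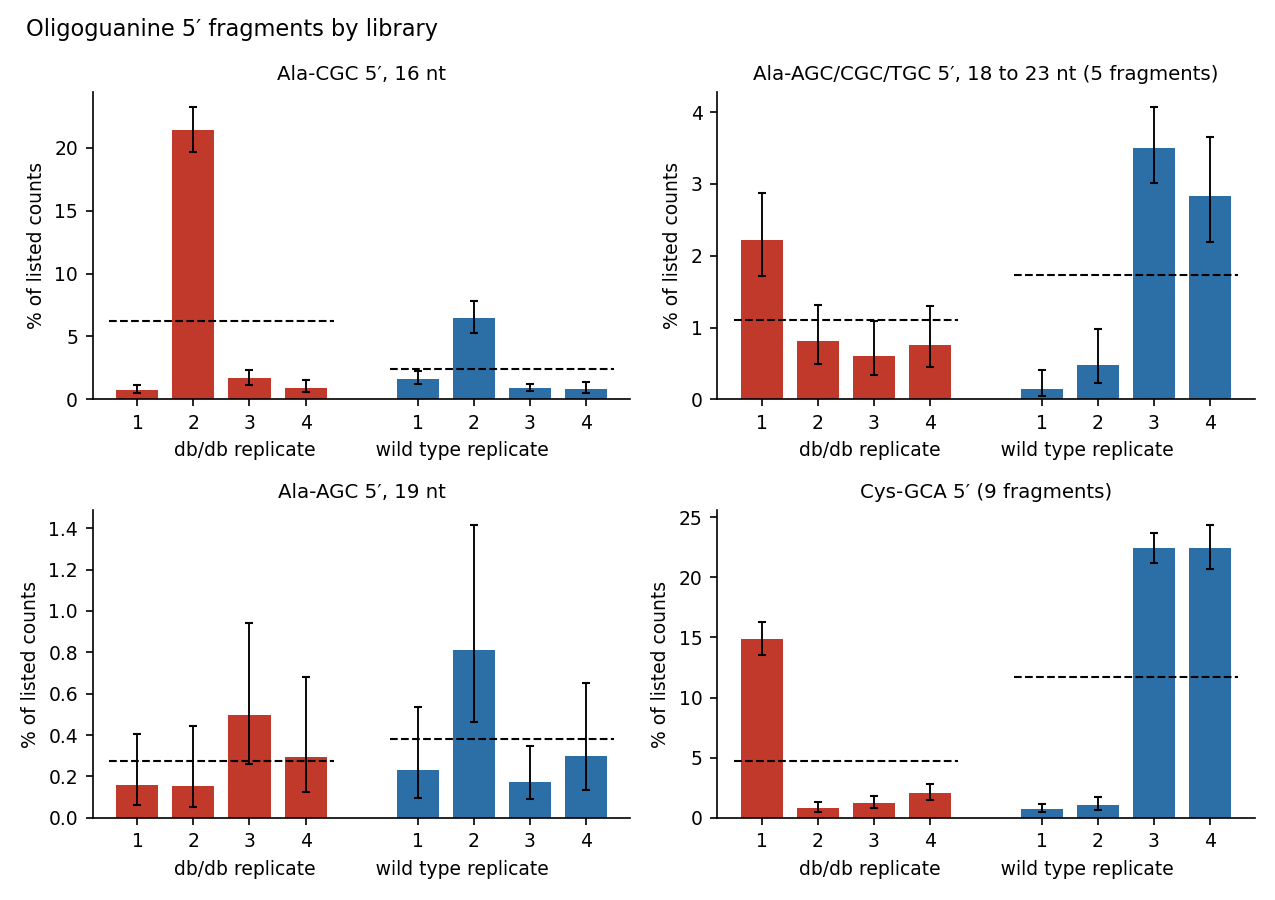
Percentage of all listed tRF counts (y axes, from 0, different scales) of 4 sets of oligoguanine 5'tRFs in db/db (red) and wild-type (blue) replicates, with 95% Wilson intervals and group means as dashed lines. The 16-nt Ala-CGC fragment peaks in replicate 2 of each genotype, while the shared ladder and the Cys-GCA fragments are high in db/db replicate 1 and wild-type replicates 3 and 4. The Ala-AGC fragment stays below 1% in every library.

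The internal fragments span the D arm, and 4 of the 5 match Ala-TGC alone. Their sum was 30, 27, 21 and 15 counts in db/db replicates 1 to 4 and 67, 32, 58 and 25 counts in wild-type replicates 1 to 4. The levels were 1.19%, 1.37%, 1.16% and 0.877% in db/db against 3.07%, 2.17%, 1.27% and 1.24% in wild-type iMACs. Wild-type replicates 1 and 2 were the highest, while db/db replicate 2 lay above wild-type replicates 3 and 4. The edgeR log2 fold change of the sum was -0.93 with an SE of 0.33 (edgeR adjusted p = 0.161, unadjusted p = 0.0196). With library totals in place of TMM factors it was -0.75 (edgeR unadjusted p = 0.124), and without db/db replicate 4 it was -0.58 (edgeR adjusted p = 0.548). The mean was lower in db/db among libraries 17 to 20 (1.28% in db/db against 2.62% in wild type) and 21 to 24 (1.02% in db/db against 1.26% in wild type).

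The 17-nt fragment at bases 7 to 23 averaged 0.318% ± 0.0747 in db/db and 0.718% ± 0.230 in wild-type iMACs, where all 4 together averaged 1.15% ± 0.202 in db/db and 1.94% ± 0.868 in wild type (SD, n = 4 each). It had 6, 8, 5 and 6 counts in the db/db libraries, against 22, 8, 24 and 16 counts in the wild-type libraries. As levels these were 0.238%, 0.405%, 0.277% and 0.351% in db/db and 1.01%, 0.542%, 0.526% and 0.796% in wild-type iMACs, so every db/db library lay below every wild-type library. It was the only alanine fragment whose groups did not overlap, and 2 of the 144 tRFs (1.39%) were separated in this direction. The 16-nt Ala-CGC fragment held 423 of the 1976 listed counts of db/db replicate 2, which lowers every other level there. That library had the highest db/db level of the 17-nt fragment (0.405%). The separation was not tested with the 16-nt fragment out of the totals. The log2 fold change of the 17-nt fragment was -1.01 with an SE of 0.42 (edgeR adjusted p = 0.156). It passed the filter on low counts, which asks for at least 0.502% in 4 libraries, through its 4 wild-type libraries alone, so this fit gives no support to the difference. With no filter the value was -1.01 (SE 0.46, edgeR adjusted p = 0.278). Its sequence was found in no other GENCODE transcript.

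The 3 shorter Ala-TGC fragments overlapped between the genotypes. The one at bases 10 to 25 had 14, 5, 6 and 3 counts in the db/db and 20, 15, 10 and 2 counts in the wild-type libraries. The one at bases 8 to 23 had 9, 8, 4 and 3 counts in the db/db and 16, 4, 16 and 3 counts in the wild-type libraries, and the one at bases 7 to 22 had 1, 6, 6 and 3 in the db/db and 9, 5, 8 and 4 in the wild-type libraries. The fragment at bases 10 to 25 that matches Ala-TGC and Cys-GCA had 8, 6, 1 and 1 counts in the db/db and 12, 0, 9 and 4 counts in the wild-type libraries. It differs from its Ala-TGC counterpart at base 16 only, and its highest level was 0.550% in wild-type replicate 1. The 3'tRF of Ala-CGC and Ala-TGC, which lies in the T arm and acceptor stem, had 8, 5, 0 and 7 counts in the db/db and 9, 2, 5 and 2 counts in the wild-type libraries.

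**Figure D4:**
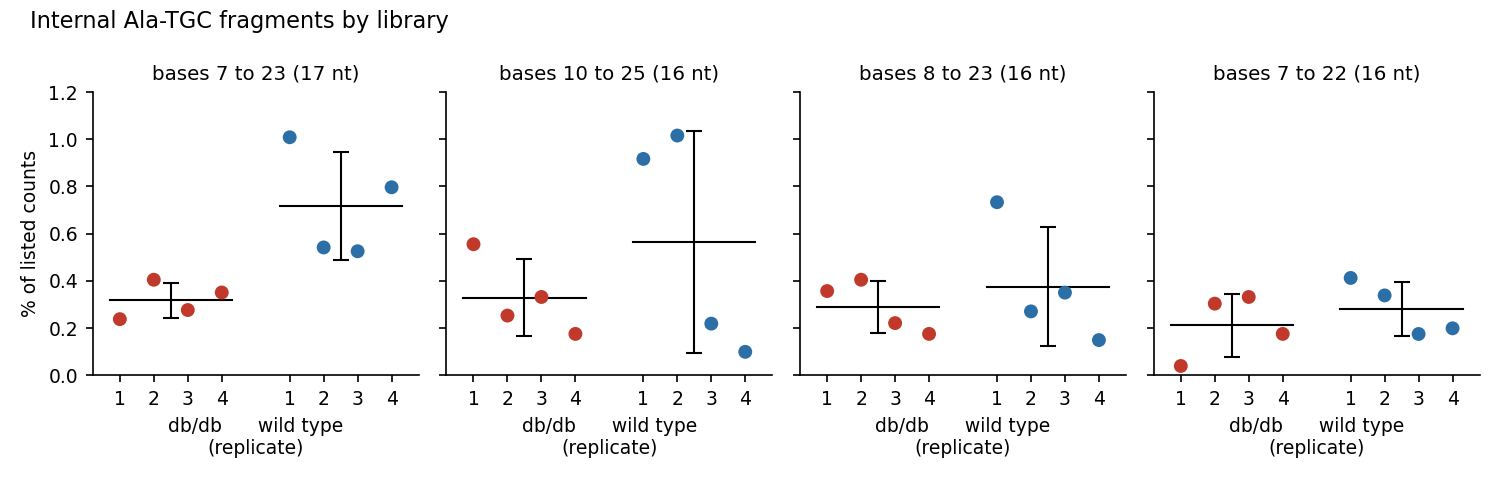
Percentage of all listed tRF counts (y axis, from 0) of the 4 Ala-TGC internal fragments in db/db (red) and wild-type (blue) replicates, with group mean and SD in black (n = 4 each). The groups are apart for bases 7 to 23, at 0.238% to 0.405% in db/db and 0.526% to 1.01% in wild type. They overlap in the other 3. The totals include the 16-nt Ala-CGC fragment, which held 21.4% in db/db replicate 2.

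With all 8 libraries no alanine fragment passed the test between genotypes (edgeR, at an adjusted p below 0.1 with more than a 2-fold difference). After the filter on low counts 2 of the 13 were tested, the 16-nt Ala-CGC fragment and the 17-nt Ala-TGC fragment, and 0 were called, where 6 of all 44 tRFs tested (13.6%) were called, all higher in db/db. At an unadjusted p below 0.05 in that fit, 10 of the 44 were higher and 2 lower, and 1 of those 2 was the 17-nt Ala-TGC fragment that entered through wild type alone. The 6 calls depended on the fit. With library totals in place of TMM factors 0 of the 44 were called, and likewise with a term for the library numbers. With no filter each of these alternatives called 4 of 144, all higher in db/db and none of alanine. DESeq2, run without a filter, called 0 of the 11 alanine fragments to which it gave an adjusted p, against 16 of 134 tRFs (11.9%), and it gave none to the 16-nt Ala-CGC and the 21-nt ladder fragment. Among sums over tRNA names and region 3 alanine sums were tested and 0 called, against 1 of 33 (3.03%). With no filter edgeR called 0 of the 13, against 11 of 144 (7.64%), and at an unadjusted p below 0.05 it had 0 of the 13, against 23 higher and 2 lower of the 144. The median log2 fold change in that fit was -0.22 over the 13 alanine fragments, with 3 positive and 10 negative, beside -0.11 over all 144. It was -0.66 over the 7 oligoguanine 5'tRFs and -1.38 over the 9 of Cys-GCA, while the 47 5'tRFs of other tRNAs with fewer than 4 leading guanines had a median of 0.95, with 10 called higher. Both oligoguanine medians include the 3 libraries that stood apart, and no median was taken without them. In the remaining libraries Cys-GCA held 0.810%, 1.22% and 2.05% in db/db against 0.733% and 1.08% in wild type. The 18-nt ladder fragment, which sets the median of -0.66, was at 0.62 without the 3 libraries. The standard errors of the alanine fragments ran from 0.46 to 1.33 on the log2 scale in that fit.

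**Figure D5:**
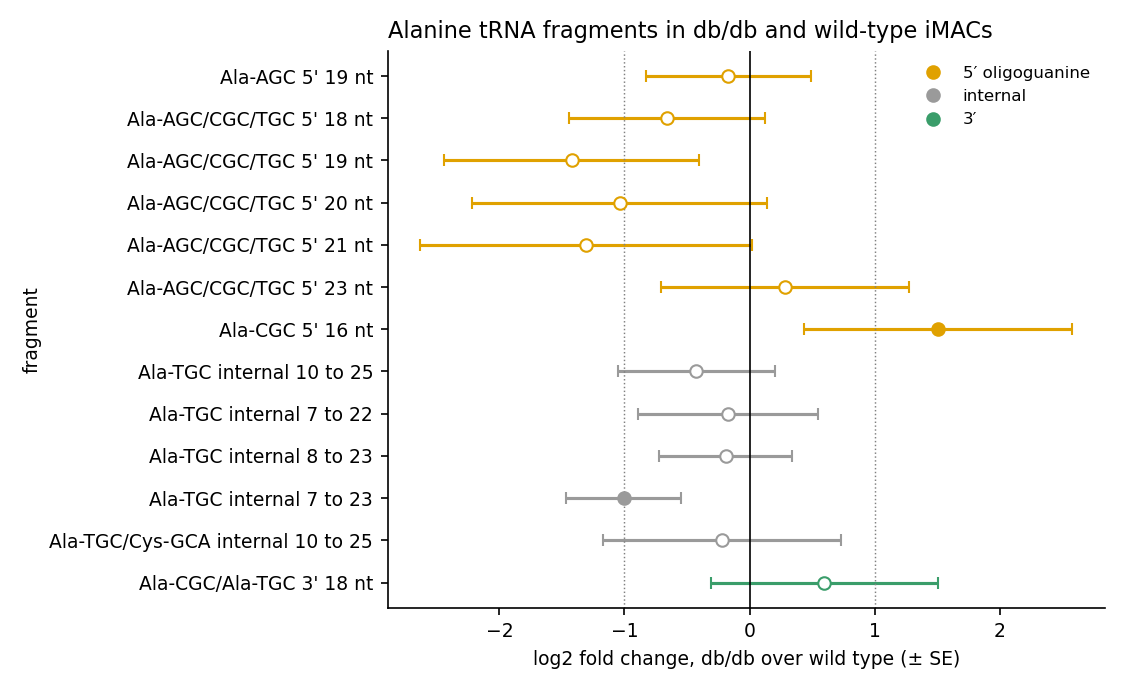
Log2 fold change of db/db over wild type with its SE (x axis) for the 13 alanine fragments, from edgeR with no filter on low counts. Filled points are the 2 fragments that also passed the filter, and dotted lines mark a 2-fold change. The values run from -1.42 for the 19-nt ladder fragment to 1.51 for the 16-nt Ala-CGC fragment, and 0 of the 13 were called.

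Without db/db replicate 1 and wild-type replicates 3 and 4, some of these calls changed. The ladder sum turned to a log2 fold change of 1.47 (SE 0.70, edgeR adjusted p = 0.1005). This direction follows in part from the choice of libraries, because those left out were the 3 highest in the ladder. The Ala-TGC internal sum passed as lower in db/db, at -1.07 (SE 0.50, edgeR adjusted p = 0.0955), where 6 of 32 sums (18.8%) were called lower, but not with no filter (edgeR adjusted p = 0.166). The Ala-TGC fragment at bases 10 to 25 passed as lower, at -1.55 (SE 0.54, edgeR adjusted p = 0.0656), where 7 of 63 tRFs (11.1%) were called lower. It passed the filter through the 2 wild-type libraries alone, so this call is no independent support. With no filter it was also called (-1.55, SE 0.64, edgeR adjusted p = 0.0960), where 10 of 144 tRFs (6.94%) were called lower. This call too follows in part from the choice of libraries. Those left out were the lowest of wild type (0.219% and 0.0996%) and the highest of db/db (0.555%) for this fragment. With all 8 libraries and no filter its log2 fold change was -0.42 (edgeR adjusted p = 0.754). For the Ala-TGC internal sum the wild-type libraries left out were also the lowest of wild type. The 5 remaining values of the fragment at bases 10 to 25 were 5, 6 and 3 counts in db/db and 20 and 15 counts in wild-type iMACs. The 17-nt Ala-TGC fragment was below the filter there. With no filter it had a value of -0.80 (SE 0.63, edgeR adjusted p = 0.413), and the 23-nt ladder fragment was called higher (edgeR adjusted p = 0.0166), as were 23 of 144 tRFs (16%). The 2 wild-type libraries left had 0 counts of the 23-nt fragment, against 6, 5 and 8 in db/db, so no fold is given.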

How the data were processed

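RNA of sorted iMACs was, per the labels and the study's methods, purified with a miRNeasy micro kit and sequenced with the QIAseq miRNA kit, which marks molecules with unique identifiers. The authors removed adapters, collapsed identical reads by identifier, aligned reads to GRCm38.p6 and kept perfect bowtie matches to mature tRNAs of GtRNAdb. The deposited counts are therefore molecules per tRF. Perfect matching drops fragments with misread modified bases, so levels cannot be compared between tRNAs directly. The authors also deposited a log2 value per count, which was not used.

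The 242 rows were collapsed to 144 sequences (24 rows to 13 for alanine). Fragments ending in CCA were called 3', those whose first base lay at most 1 nt from the mature 5' end (inferred from conserved D-arm bases) 5', and all others internal. Genotypes were compared with edgeR 4.0.16 (R 4.3.3, quasi-likelihood test, TMM factors, filterByExpr with minimum count 10 and minimum total 15, Benjamini-Hochberg adjustment over all tRFs tested). Sums joined tRFs with the same tRNA names and region. Scripts were tested on simulated data. Alternatives were DESeq2 1.42.0, library totals without TMM, no filter, a covariate for libraries 17 to 20 against 21 to 24, and leaving out libraries. Total listed counts ranged from 1477 to 4567 per library, and every pair of libraries differed beyond sampling noise (chi-square per degree of freedom of 1.46 or more).

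Values are given for every alanine fragment. The naming rule took each fragment or sum that entered the test, the most abundant fragment of each set of tRNA names and region, and each oligoguanine alanine 5'tRF with 20 or more counts. The members and lists were chosen with earlier results of these data known.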

Additional observations from a re-analysis of the deposited data

Results flagged for a closer look

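In 12 of 38 groups of 4 libraries checked, 1 library lay further from the rest than Dixon's 95% critical value allows, where chance gives about 1 in 20. The fragments overlap with their sums, so the 12 are not independent. In db/db replicate 2 these were the 16-nt Ala-CGC fragment at 21.41%, the oligoguanine class at 22.37% and all alanine fragments at 24.29% of the listed counts. In wild-type replicate 2 they were the 16-nt Ala-CGC fragment at 6.432% and all alanine fragments at 10.02%. In db/db replicate 1 they were the 18-nt, 20-nt and 21-nt ladder fragments at 0.6347%, 0.595% and 0.357%, the ladder sum at 2.221% and the Cys-GCA oligoguanine 5'tRFs at 14.84%. The 23-nt ladder fragment stood out in db/db replicate 4 at 0.4678%, from 8 counts, and the 3'tRF in wild-type replicate 1 at 0.4125%, from 9 counts.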

How the results depend on the processing

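Of 193 alternative fold changes for 16 fragments or sums, 172 kept their direction and side of the threshold, 18 changed sign and 3 passed the threshold where the value with all 8 libraries did not. DESeq2 values with no adjusted p are left out. For 3 fragments or sums no alternative changed the sign. Replicate numbers follow sample order. No paired analysis was possible because the labels pair no libraries. Without db/db replicate 1 and wild-type replicates 3 and 4 together, 1 alanine fragment and 1 alanine sum were called, and the log2 fold change of the ladder sum was 1.47, that of the 18-nt, 19-nt and 20-nt ladder fragments 0.62, 1.07 and 1.10, and that of the 3'tRF -0.019. Leaving out 1 library at a time gave 0 alanine calls each time, among 2 to 5 alanine fragments tested, while calls over all tRFs ran from 0 of 68 (without db/db replicate 2 or 3) to 16 higher and 5 lower of 53 (without db/db replicate 1). The log2 fold change of the 16-nt Ala-CGC fragment then ran from -0.99 (without db/db replicate 2) to 2.48 (without wild-type replicate 2), and from -0.83 to 2.34 in the fit of sums. The ladder fragments ran from -1.17 to 0.13 (18 nt), from -3.53 to 0.094 (21 nt) and from -0.15 to 1.22 (23 nt), and wild-type replicate 3 turned the first 2 when left out. The Ala-AGC fragment ran from -0.74 to 0.34, the Ala-TGC fragments at bases 7 to 22 and 8 to 23 from -0.47 to 0.22 and from -0.47 to 0.12, and the Ala-TGC and Cys-GCA fragment from -0.59 to 0.25. The 19-nt and 20-nt ladder fragments stayed negative, from -2.18 to -0.51 and from -2.74 to -0.25, as did the Ala-TGC fragments at bases 10 to 25 (-0.86 to -0.04) and 7 to 23 (-1.20 to -0.85) and the Ala-TGC internal sum (-0.996 to -0.578), whose edgeR adjusted p was 0.0783 without db/db replicate 1, at less than 2-fold. The difference in the oligoguanine class was 2.996 percentage points with all libraries and 4.17 without the 3 libraries. It was -1.94 without db/db replicate 2 and -0.70 without the 16-nt fragment, the second chosen after seeing the data. That of all alanine fragments was -2.84 without db/db replicate 2, and that of the 3'tRF was -0.053 without the 3 libraries. Library totals without TMM moved the median log2 fold change of all tRFs by -0.17 and of all sums by 0.22. The cause was not tested for any of these changes. All alanine fragments but 1 had 38 to 95 counts over the 8 libraries.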
